A study of Mus musculus with 4 samples.

Results

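The 10 genes described here carry signals from Toll-like receptors (TLRs) into the cell and were followed through the mouse bone marrow: Myd88, Tirap, Irak1, Irak2, Irak3, Irak4, Traf3, Traf6, Tbk1 and Ikbke. They were taken by symbol, as 10 of the 31053 genes in the matrices. The rule used no measured value, but earlier results of these data were known when the genes were chosen. Bone marrow mononuclear cells from the femur and tibia were compared between wild-type (WT) C57BL/6 mice and mice of that strain lacking the DNA-sensing receptor TLR9 (TLR9-/-), with 2 libraries per genotype and 1 library per mouse. The WT and TLR9-/- mice were bred in separate cages, so that genotype and cage cannot be told apart. By the study's methods the mice were handled in 2 separate experiments, with a WT and a TLR9-/- mouse in each, but no source used here ties the library numbers to an experiment. Single cells were profiled by 5′ single-cell RNA sequencing, in which each molecule is counted once as a unique molecular identifier (UMI).

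TLRs recognize microbial products at the cell surface or in endosomes. Nearly all of them, TLR9 included, recruit the adaptor MyD88, and TIRAP bridges MyD88 to some receptors. MyD88 assembles the kinases IRAK4, IRAK1 and IRAK2, and IRAK3 (also called IRAK-M) restrains this complex. TRAF6, a ubiquitin ligase, passes the signal on to NF-κB, while TRAF3 and the kinases TBK1 and IKKε (encoded by Ikbke) serve the interferon arm. Neutrophils, monocytes, dendritic cells and B cells of the marrow are the cells best known for TLR responses.

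Of the 40545 cells in the matrices, 39167 were kept, with 8895 to 10781 cells and 31210188 to 63958243 UMIs per library and a median of 1759 to 3618 UMIs per cell. Both TLR9-/- libraries were deeper than both WT libraries. Pairs of libraries shared 118 to 203 cell barcodes. Of the targeted gene, Tlr9, 41 and 48 UMIs were counted in mutant cells against 120 and 97 in WT cells, so transcript from the locus was lower but still counted in the mutants, and the labels do not say which part of the gene was deleted. Cells fell into 28 clusters and, by marker genes, into 13 classes with enough cells in every library; each class name below stands for cells resembling that type. The conventional dendritic cell class was mixed, since finer clustering named 44.4% of its cells conventional dendritic cells and 33.6% monocytes and macrophages. The hematopoietic stem and progenitor class was mixed as well. There 65.6% of the cells kept that name and 24.3% were named plasmacytoid dendritic cells. Levels are given in CPM, UMIs per 1000000 UMIs of the class, with the total rescaled by trimmed mean of M values (TMM). Counts of a neutrophil transcript outside neutrophils differed between classes. The neutrophil transcript S100a8 averaged 235050 CPM in neutrophils, 13961 in plasma cells, 9124 in T cells, 5515 in erythroid cells, 301 in B cells and 172 in B-cell precursors. Whether these counts came from free or carried-over RNA, from doublets or from the cells themselves was not tested. The part of free or carried-over RNA in the levels of the other classes was not tested either.

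All 10 genes were detected, at 0.400 to 60.4 CPM as class means over the 4 libraries, after TMM scaling. Because a molecule is counted once from its 5′ end, these levels do not grow with transcript length. Their breadth differed widely. Irak2 ranged 57.9-fold between its highest and lowest class and Irak3 46.1-fold, whereas Tbk1 ranged 1.65-fold. Neighbouring classes in a gene's order mostly overlapped between libraries: for Irak2, Irak4, Traf6 and Tbk1 every pair of neighbours overlapped.

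**Figure D1:**
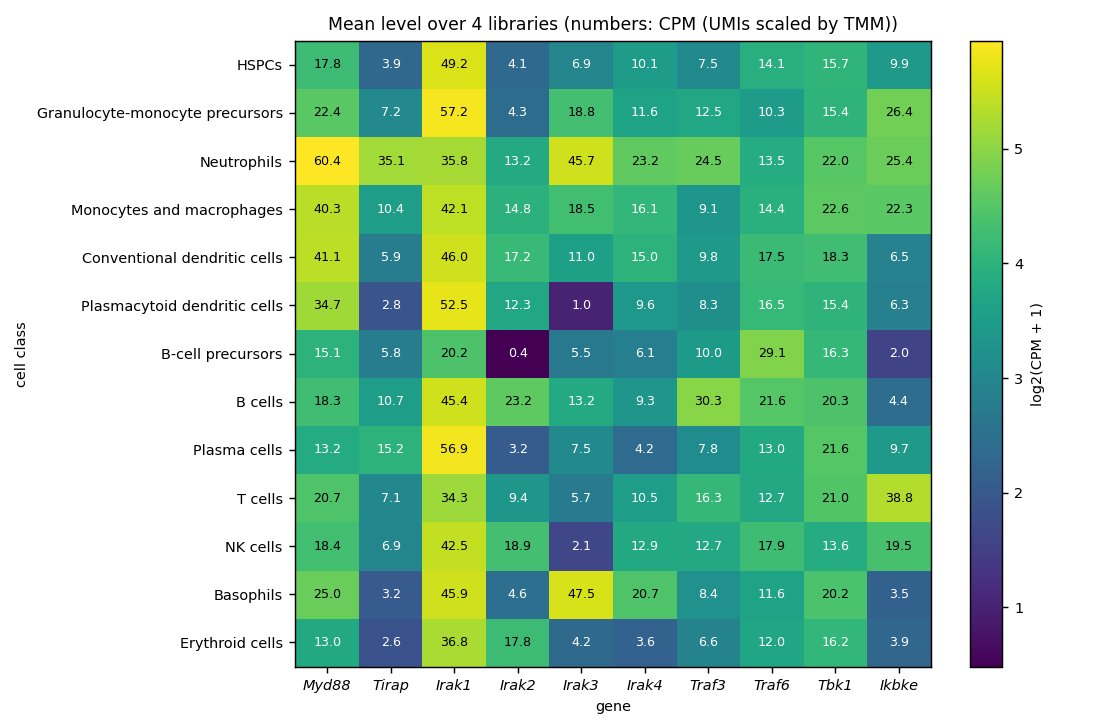
Mean level of each of the 10 genes (columns) in 13 cell classes (rows), in CPM after TMM scaling, averaged over 4 libraries; color gives log2(CPM + 1). With this scaling, Myd88 and Tirap peak in neutrophils at 60.4 and 35.1, and Irak2 falls to 0.400 in B-cell precursors.

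The adaptors were highest in neutrophils after TMM scaling. Without it, Myd88 was not higher there than in monocytes and macrophages (log2 fold change -0.12). Myd88 (chr9:119335934-119341411, minus strand, mm10) stood at 72.5 and 74.0 CPM in the TLR9-/- neutrophils and at 49.2 and 46.1 in the WT neutrophils. Its next classes were conventional dendritic cells, at 41.1 ± 4.90 (SD, n = 4), and monocytes and macrophages, at 40.3 ± 4.47. The lowest class, erythroid cells, had 12.97 ± 1.53. Tirap (chr9:35184551-35200291, minus strand) was more restricted. In neutrophils it measured 25.4 and 34.9 in WT mice and 33.3 and 46.9 in mice without TLR9. After TMM scaling the lowest neutrophil library was above every library of the next class, plasma cells, which held 3 to 8 Tirap UMIs each. Unscaled, WT library 1 held 45 Tirap UMIs of 2729374 in neutrophils and 8 of 477309 in plasma cells, so that the ranges overlapped. Tirap shares exonic sequence with Srpr and Gm39318 on the opposite strand, and Myd88 with Acaa1a.

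The IRAK kinases had unlike distributions. Irak4 (chr15:94543643-94581815, plus strand) encodes the kinase that starts the cascade. Like both adaptors, after TMM scaling it was highest in neutrophils, at 23.2 ± 5.38, and lowest in erythroid cells, at 3.62 ± 1.01. Basophils came next for Irak4, at 20.7 ± 9.13, but had only 3.16 ± 2.73 CPM of Tirap. Without TMM, Irak4 was not higher in neutrophils than in monocytes and macrophages (log2 fold change -0.12). Unscaled, WT library 1 held 37 Irak4 UMIs of 2729374 in neutrophils and 15 of 462492 in basophils, so that neutrophils were not above basophils. Irak1 (chrX:74013914-74023918, minus strand) was high in almost every class, from 57.2 ± 5.01 in granulocyte-monocyte precursors to 34.3 ± 9.34 in T cells. After TMM scaling, only B-cell precursors lay below the libraries of all other classes, at 20.2 ± 1.98. Unscaled, TLR9-/- library 1 held 86 Irak1 UMIs of 5393497 in neutrophils and 127 of 5920462 in B-cell precursors, so that the ranges of these classes overlapped. Irak3 (chr10:120141648-120202130, minus strand), the inhibitory member, was highest in basophils at 47.5 ± 8.19 and neutrophils at 45.7 ± 5.44. Their ranges overlapped after TMM scaling but not before it. Unscaled, the lowest basophil library (WT 2) held 15 Irak3 UMIs of 325883 and the highest neutrophil library (TLR9-/- 2) 285 of 9046630. After TMM scaling the lowest neutrophil library, at 41.3, was above every library of granulocyte-monocyte precursors, the next class. Plasmacytoid dendritic cells, which are known for TLR9 and TLR7 responses, had 1 to 4 Irak3 UMIs per library.

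Irak2 (chr6:113638467-113695026, plus strand) separated the stages of the B lineage. B cells held 24.6 and 20.6 CPM in WT mice and 20.1 and 27.4 in mice without TLR9, from 34 to 72 UMIs each. B-cell precursors held 2, 2, 2 and 4 UMIs, or 0.28 to 0.54 CPM. No library of one class came near the other. The log2 fold change was 5.77 ± 0.31 (SE), and the ratio of the summed, unscaled UMIs was 59.0, with an exact 95% interval of 31.5 to 124.6 that covers counting error only.

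The ubiquitin ligases differed from each other. After TMM scaling, Traf3 (chr12:111166370-111267153, plus strand) was highest in B cells at 30.3 ± 4.77 and neutrophils at 24.5 ± 4.46, and monocytes and macrophages had 9.15 ± 1.22. Unscaled, TLR9-/- library 1 held 79 Traf3 UMIs of 5393497 in neutrophils and 25 of 1316433 in T cells, so that neutrophils no longer stood above T cells. Traf6 (chr2:101678429-101701669, plus strand) was highest in B-cell precursors at 29.1 ± 6.52 and lowest in granulocyte-monocyte precursors at 10.3 ± 0.68. Tbk1 (chr10:121546455-121586787, minus strand) was the most even, from 22.6 ± 2.76 in monocytes and macrophages to 13.6 ± 6.47 in NK cells. Its relative Ikbke (chr1:131254343-131279606, minus strand) was highest in T cells at 38.8 ± 7.42, followed by granulocyte-monocyte precursors at 26.4 ± 6.66 and neutrophils at 25.4 ± 4.09. It was lowest in B-cell precursors at 2.04 ± 0.19. These orders are those after TMM scaling.

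To compare classes within the same mice, 6 contrasts were tested with edgeR's quasi-likelihood test, with the library as a block and Benjamini-Hochberg adjustment over 11513 genes. In neutrophils against B cells, 5 of the 10 genes were higher and 4 lower, beside 30.5% and 39.9% of all genes. The higher genes were Ikbke (log2 fold change 2.58 ± 0.27 SE, adjusted p = 8.76e-12), Irak3 (1.83), Myd88 (1.76), Tirap (1.72) and Irak4 (1.37). The lower genes were Irak2 (-0.79), Traf6 (-0.68), Traf3 (-0.35) and Irak1 (-0.33). The median of the 10 genes was 0.75 against -0.17 for all genes tested. Traf3 lost its call under 9 and Irak1 under 6 of the 11 other settings. Without TMM, 1879 of all genes were higher and 7490 lower, against 3515 and 4597 with it, and the median of all genes was -0.97. The directions called with TMM held, but Tbk1 was then called lower (-0.67, from 0.14), giving 5 genes higher and 5 lower. The higher genes shrank, to 1.78 (Ikbke), 1.02 (Irak3), 0.95 (Myd88), 0.91 (Tirap) and 0.57 (Irak4).

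In monocytes and macrophages against B cells, 4 genes were higher and 3 lower, beside 31.3% and 32.5% of all genes. Ikbke (2.38), Myd88 (1.17), Irak4 (0.79) and Irak3 (0.53) were higher, and Traf3 (-1.67), Irak2 (-0.67) and Traf6 (-0.63) were lower. Irak3 lost its call when either WT library was left out, with 0.38 and 0.30. Tirap, at -0.06 with a 95% interval of -0.63 to 0.51, was not called.

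The contrast of neutrophils with monocytes and macrophages called 5 genes higher and 1 lower, beside 25.9% and 34.1% of all genes. Tirap (1.78 ± 0.23), Traf3 (1.32 ± 0.17) and Irak3 (1.30 ± 0.15) were higher in neutrophils, and kept that direction without TMM. Myd88 (0.59) and Irak4 (0.58) were also higher, but both became -0.12 without TMM. Without TMM the median of all genes moved from -0.09 to -0.79, and 1292 genes (11.2%) were higher and 7559 (65.7%) lower, against 2977 and 3923 with it. The 10 genes then gave 3 higher (Tirap, Traf3 and Irak3) and 5 lower (Irak1, Irak2, Traf6, Tbk1 and Ikbke). Irak1 was lower (-0.24) and lost its call under 10 of the 11 other settings.

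Along the myeloid lineage, 8 genes were higher in neutrophils than in granulocyte-monocyte precursors and 1 was lower, beside 34.7% and 37.2% of all genes. Tirap rose most (2.27 ± 0.22), followed by Irak2 (1.60), Myd88 (1.43), Irak3 (1.29), Irak4 (1.06) and Traf3 (0.90). Irak1 fell by 0.67 on the log2 scale. Tbk1 (0.53) and Traf6 (0.38) were called higher, but turned to -0.09 and -0.23 without TMM, where the median of all genes moved from -0.03 to -0.64 and 2207 genes (19.2%) were higher and 6554 (56.9%) lower, against 3992 and 4281 with it. Under that setting Traf3 also lost its call (0.29) and Ikbke was called lower (-0.66), which left 5 of the 10 genes higher and 2 lower. In monocytes and macrophages against the same precursors, 5 genes were higher and 2 lower, beside 29.6% and 28.8%. Irak2 (1.71), Myd88 (0.84), Tbk1 (0.52), Irak4 (0.48) and Traf6 (0.44) were higher, and Irak1 and Traf3 (-0.43 each) were lower. Without TMM Traf3 lost its call (-0.34) and Tirap was called higher (0.59, from 0.50 with TMM).

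In B cells against B-cell precursors, 7 genes were higher and 1 lower, beside 24.8% and 26.3% of all genes. After Irak2, the higher genes were Traf3 (1.61 ± 0.16), Irak3 (1.21), Irak1 (1.16), Ikbke (1.03), Tirap (0.82) and Irak4 (0.57). Traf6 was lower (-0.40), and lost its call under 6 other settings. The median of the 10 genes was 0.92 against 0.02 for all genes tested.

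**Figure D2:**
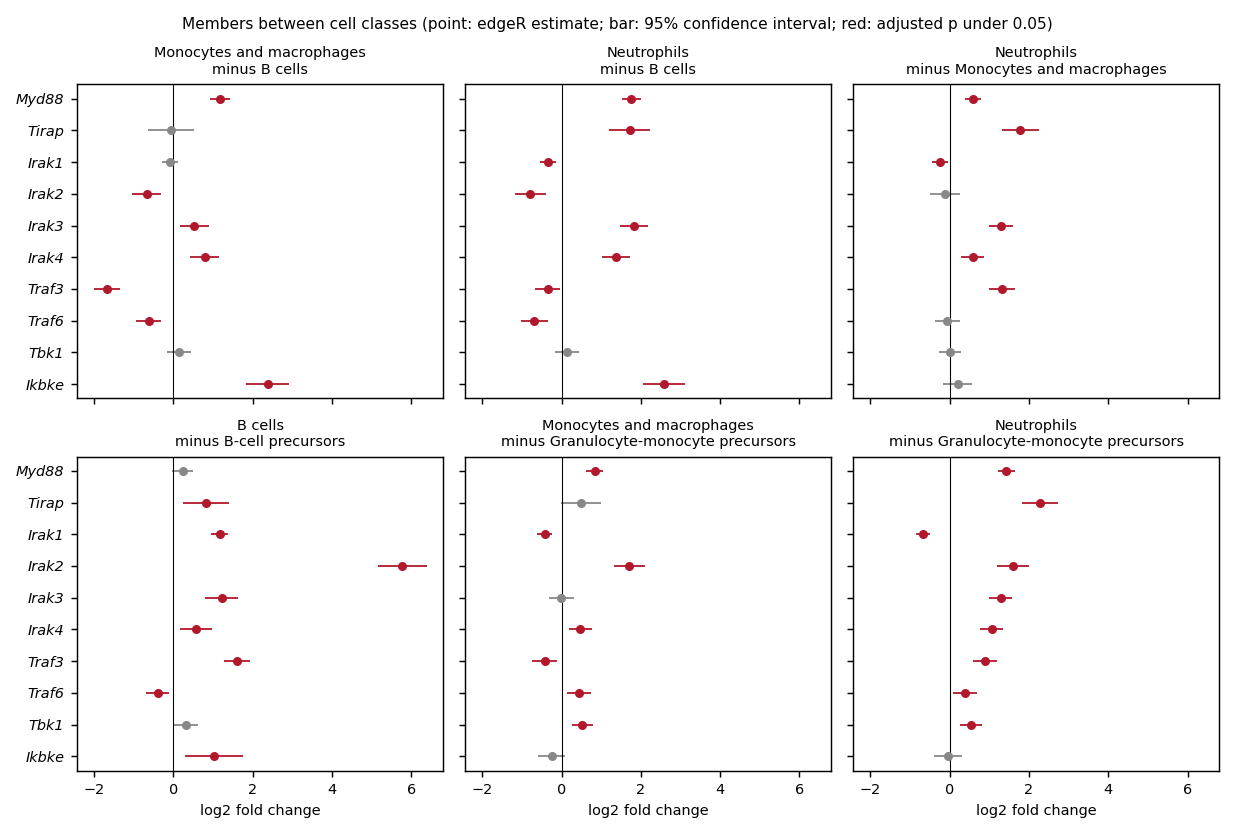
Log2 fold change (x axis) of each gene (y axis) in 6 contrasts between cell classes; points are edgeR estimates over 4 libraries, bars are 95% confidence intervals and red marks an adjusted p under 0.05. Irak2 stands apart at 5.77 in B cells against their precursors, and Tirap is higher in neutrophils than in each class they were compared with.

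Other genes of the pathway, 30 regulators and partners of which 28 were tested, gave a background for these contrasts. In neutrophils against B cells, 7 were higher and 8 lower, led by the ubiquitin ligase Peli2 (6.19) and the TBK1 adaptor Tbkbp1 (5.43) on one side and the deubiquitinases Tnfaip3 (-1.39) and Otulin (-1.17) on the other. In monocytes and macrophages against B cells, 7 were higher, again with Tbkbp1 (5.39) and Peli2 (5.09), and 10 lower, with the B-cell adaptor Pik3ap1 (-2.80) and Tnfaip3 (-2.19). In neutrophils against monocytes and macrophages, 8 were higher, with Pik3ap1 (1.87) and Peli2 (1.10), and 4 lower, with the TRIF-side adaptor Ticam2 (-2.34) and the IκB kinase Ikbkb (-1.36). The kinase Map3k8 led the maturation contrasts. It was higher in B cells than in their precursors (3.43), where 13 genes were higher, Ticam1 (1.28) among them, and Ube2n (-0.65) was the only one lower. Map3k8 was also higher than in granulocyte-monocyte precursors in monocytes and macrophages (1.71; 12 higher, with Peli1 at 1.43, and 1 lower, Pik3ap1 at -0.80). In neutrophils against these precursors, 16 were higher, with Map3k8 (1.83) and Peli2 (1.52), and 4 lower, with Ticam2 (-1.48) and Otulin (-0.56).

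Within neutrophils, the clusters differed along the granule genes that defined them; clusters were set in this order after their values were seen, and no test was made. Cluster 12 was led by Ngp and Camp, genes of secondary granules, and cluster 6 by Retnlg, Il1b and Cxcr2, genes of mature neutrophils. Myd88 was 35.4 ± 6.14 in cluster 12, 34.9 ± 9.57 in cluster 23, 74.2 ± 12.8 in cluster 9 and 158 ± 48.5 in cluster 6 (SD over 4 libraries). Every library of cluster 6 exceeded every library of the other 3 clusters. Irak4 behaved likewise, from 13.1 ± 8.14 in cluster 12 to 57.2 ± 14.1 in cluster 6, and Tirap went from 23.2 ± 4.85 to 66.8 ± 28.3. Irak1 and Ikbke ran the other way, from 43.2 ± 11.2 to 15.7 ± 8.14 and from 35.6 ± 7.19 to 3.75 ± 2.72. Cluster 6 had fewer UMIs per cell, with a median 0.451 times that of its libraries against 2.98 times in cluster 12, and the part of depth was not tested.

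In the B lineage, Irak2 was at 0.207 to 0.553 CPM in precursor clusters 18, 4, 1 and 16. Among the B cells it stood at 5.52 ± 3.77 in cluster 27 (185 cells with 0 to 3 Irak2 UMIs per library, led by Ms4a1 and Iglc2), at 14.9 ± 4.34 in cluster 5, led by Ms4a1 and Tnfrsf13c, and at 29.3 ± 1.32 in cluster 2, led by class II genes, Ighd and Fcer2a. Irak1 was at 24.3 ± 12.02, 33.1 ± 11.9 and 51.6 ± 8.07 in these clusters and at 16.7 to 20.9 in the precursor clusters. Traf6 instead peaked within the precursors, at 49.7 ± 7.47 in the Rag1-expressing cluster 1, against 15.2 ± 2.50 in cluster 18. Irak2 was also found outside the immune classes, at 28.5 ± 6.52 in erythroid cluster 3.

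**Figure D3:**
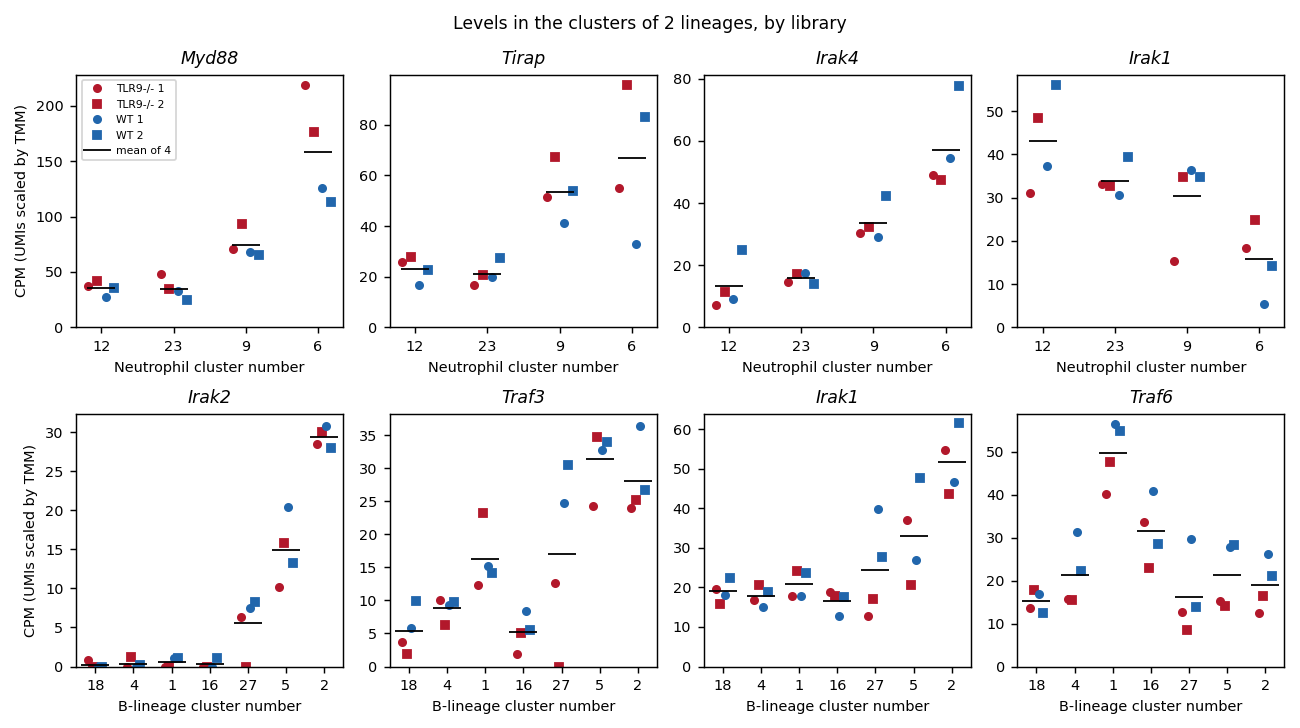
CPM after TMM (y axis) in clusters (x axis) of the neutrophil class (upper row) and the B lineage (lower row); each point is 1 library, red for TLR9-/- and blue for WT, and the line is the mean of 4. Myd88 and Irak4 are highest in neutrophil cluster 6, and Irak2 is near 0 in all 4 precursor clusters.

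The genes with the most similar class profile were found by Pearson's r of log2(CPM + 1) over the 13 classes, a description in which classes share libraries. For Myd88 these were Borcs6, Rab7 and Gnai2 (r = 0.95 to 0.943), for Tirap Pde8a, Casp4 and Snx13 (0.919 to 0.886), and for Irak1 Pde4a, Mlycd and Alg1 (0.835 to 0.797). Irak2 was closest to Rnf213, Relt and Klf3 (0.856 to 0.809), Irak3 to Lpcat2 and Mindy1 (0.902 and 0.887), and Irak4 to Slc25a11, Rin3 and Actg1 (0.980 to 0.923). For Traf3 they were Itsn2, Grk6 and Cables2 (0.900 to 0.863), for Traf6 Nuak1, Ankrd40 and Bach2 (0.943 to 0.927), for Tbk1 Pygo2, Fas and Zfp276 (0.816 to 0.794), and for Ikbke Gpc1, Hdac4 and Hsd11b1 (0.853 to 0.841).

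Between genotypes, none of the 10 genes passed the threshold in any class in the main fit, which had no block on the library number. Without the filter on low counts, Tirap was called in B-cell precursors and in B cells. The share of all genes called is not given here for that setting, so these 2 calls have no background. By edgeR's quasi-likelihood test of 2 against 2 libraries, adjusted over all genes, 0 of the genes tested were called in each of the 13 classes. The same test did not call Tlr9, the targeted gene, where it was tested. Tlr9 gave -2.00 in monocytes and macrophages (edgeR adjusted p = 0.151), -1.62 in B cells (0.328) and -1.86 in plasmacytoid dendritic cells (0.276). The 0 calls therefore do not show that an effect is absent. All 10 were tested in HSPCs (hematopoietic stem and progenitor cells), granulocyte-monocyte precursors, monocytes and macrophages, neutrophils, B cells and erythroid cells, 9 in B-cell precursors, 8 in each dendritic cell class, 6 in T cells, 5 in basophils and 1 (Irak1) in plasma cells and NK cells. The share of all genes called was also small, at 0.45% in HSPCs, 0.344% in granulocyte-monocyte precursors, 0.396% in monocytes and macrophages, 0.389% in neutrophils, 0.664% in B-cell precursors and 0.215% in B cells. It was 0% in plasma cells, where 75 genes had an unadjusted p under 0.05, 0.232% in T cells, 0.0808% in NK cells, 0.204% in plasmacytoid dendritic cells, 0.0914% in conventional dendritic cells, 0.076% in erythroid cells and 0.137% in basophils. Of the 30 other pathway genes, 28 were tested in at least 1 class and none was called. With a replicate block on the library number, Irak4 (-0.71, edgeR adjusted p = 0.0197) and Ikbke (-0.53, 0.0231) were called lower in granulocyte-monocyte precursors, and Tirap in B-cell precursors (-1.26, 0.0376) and B cells (-1.58, 0.0197). The block raised the share of all genes called to 7.12%, 2.88% and 2.18% in these 3 classes. Among the 10 genes, 11 of the 98 gene and class pairs tested without the block had an unadjusted edgeR p under 0.05. Of all genes tested, 2.14% (plasma cells) to 9.51% (granulocyte-monocyte precursors) had such a p by class.

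**Figure D4:**
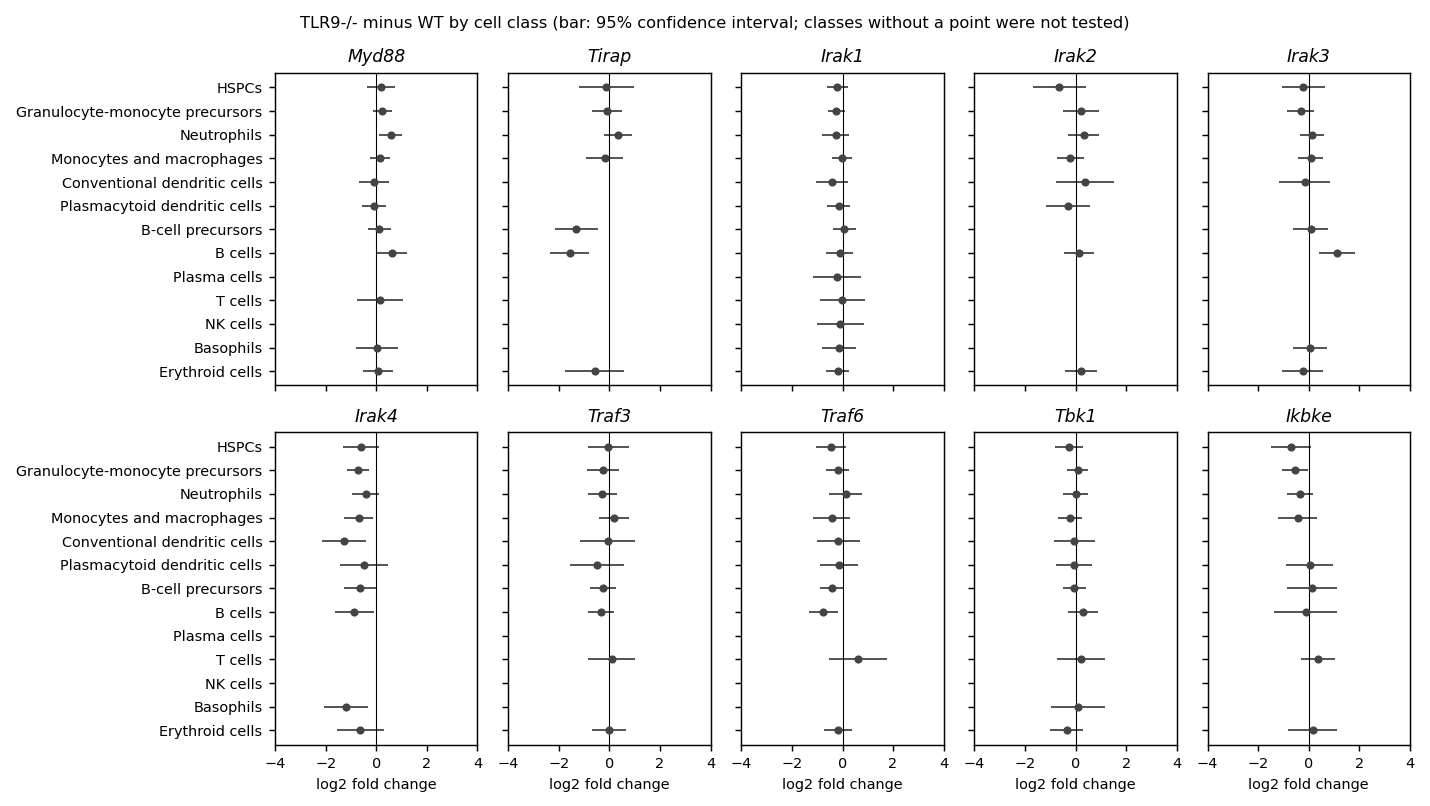
Log2 fold change of TLR9-/- minus WT (x axis) for each gene in each class in which it was tested (y axis); bars are 95% confidence intervals from edgeR with 2 libraries per genotype. All Irak4 points lie below 0, and Tirap lies furthest from 0 in B cells at -1.57.

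The largest of these differences was that of Tirap in the B lineage. B cells of the TLR9-/- libraries held 9 and 14 Tirap UMIs, or 5.33 and 5.32 CPM, and those of the WT libraries 34 and 62, or 13.7 and 18.5 CPM. The genotypes did not overlap, and the log2 fold change was -1.57 ± 0.35 (SE; edgeR adjusted p = 0.220, with 0.00586 to 0.837 over the other settings). In B-cell precursors the UMIs were 29 and 7 against 48 and 87, again without overlap in CPM, with -1.30 ± 0.39 (edgeR adjusted p = 0.310). With 2 libraries per genotype, such separation, here and below, can occur without an effect of genotype. Its share over all genes was not counted. The part of the overlap with Srpr, at the 5′ end of Tirap, in these differences was not tested. Neutrophils, where the gene is highest, differed by 0.33 with a 95% interval of -0.22 to 0.88, and their libraries overlapped.

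Whether the genotype effect differed between classes was tested as an interaction in B cells, monocytes and macrophages, and neutrophils, in a fit with each library as a block. Tirap was the only one of the 10 genes called. Its effect in neutrophils exceeded that in B cells by 2.03 ± 0.32 on the log2 scale (edgeR adjusted p = 0.0212), beside 0.195% of all genes called. The call was lost without TLR9-/- library 2 (adjusted p = 0.316), WT library 1 (0.0501) or WT library 2 (0.252), at differences of 1.69 to 2.04, and in a fit without the library block (1.98, adjusted p = 0.688). Monocytes and macrophages exceeded B cells by 1.46 ± 0.36 (adjusted p = 0.0947), beside 0.511% of genes called, and neutrophils exceeded monocytes and macrophages by 0.58 ± 0.26 (0.646), beside 0.27%.

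Irak4 was lower in TLR9-/- cells in all 10 classes in which it was tested, at -0.43 to -1.28. No class reached the threshold without the replicate block, the smallest adjusted p being 0.346 in granulocyte-monocyte precursors. There the levels were 9.37 and 8.72 CPM in TLR9-/- and 14.3 and 13.9 in WT libraries, without overlap. Conventional dendritic cells had 8.95 and 9.19 against 20.3 and 21.7, from 11 to 19 UMIs, and basophils 13.3 and 12.4 against 28.7 and 28.6. The classes come from the same 4 libraries and are not independent: of 5806 genes tested in all these classes, 8.59% were lower in every one. The 3′ end of Irak4, away from the 5′ end that these libraries count, overlaps exons of Twf1 on the opposite strand. The part of this overlap in the Irak4 counts was not tested.

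**Figure D5:**
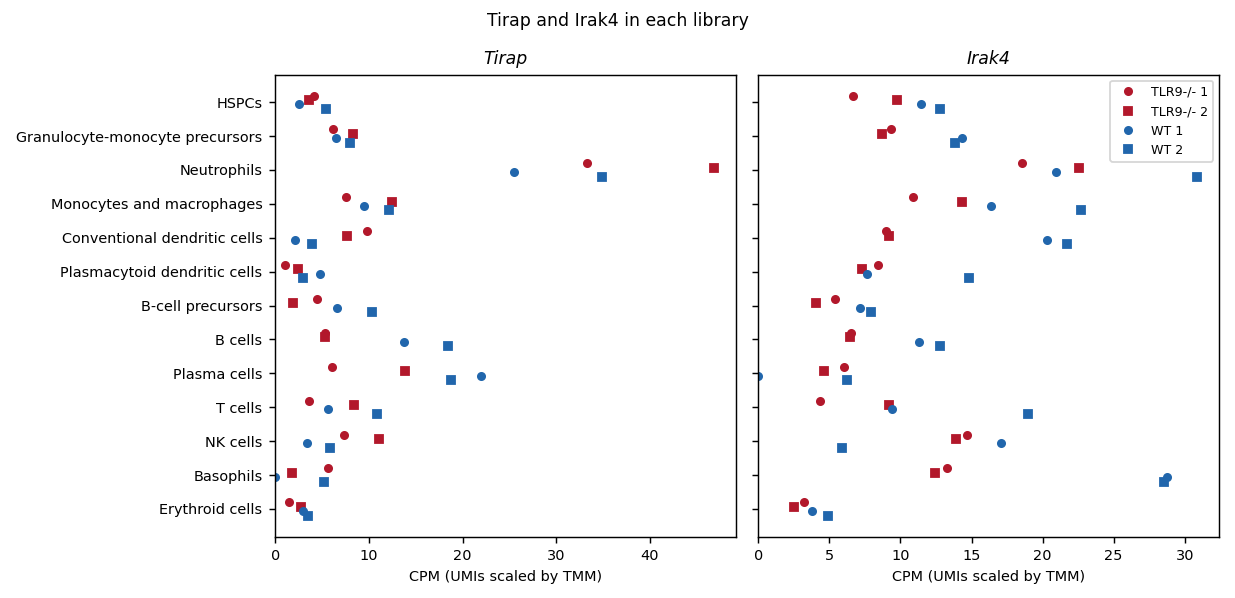
CPM after TMM (x axis) of Tirap and Irak4 in 13 cell classes (y axis); each point is 1 library, red for TLR9-/- and blue for WT. Tirap in B cells lies at 5.32 to 5.33 in TLR9-/- and at 13.7 to 18.5 in WT libraries, while neutrophils overlap.

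Irak3 and Traf6 also differed in B cells before adjustment. Irak3 was at 14.2 and 21.7 CPM in TLR9-/- and 7.65 and 9.23 in WT B cells (log2 fold change 1.13 ± 0.32, edgeR adjusted p = 0.420), and Traf6 at 14.8 and 16.7 against 29.8 and 25.0 (-0.76 ± 0.26, adjusted p = 0.622). Neither pair of genotypes overlapped. Myd88 in neutrophils, at the levels given above, differed by 0.56 ± 0.20 (edgeR adjusted p = 0.512) and Ikbke in granulocyte-monocyte precursors by -0.53 ± 0.22 (0.518). In neither case did the genotypes overlap, but these pairs of gene and class were picked for an unadjusted edgeR p under 0.05. Neutrophil cluster 6, where Myd88 was highest, held 718 of 1540 and 783 of 1980 neutrophils in the TLR9-/- libraries. In the WT libraries it held 213 of 859 and 677 of 1677. The part of this mix of clusters in the Myd88 difference was not tested. Irak1, tested in all 13 classes, stayed within -0.42 and 0.07, and Tbk1 within -0.35 and 0.29 in 11 classes.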

How the data were processed

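Droplet-based 5′ libraries, 1 per mouse, were aligned and counted by the authors with Cell Ranger (matrix header 3.0.1; build mm10, with STAR and Seurat 2.3.4 also named in the submitters' processing notes). The deposited values are counts of UMIs per gene and cell, not normalized. Cells with 200 to 10000 genes and at most 10% mitochondrial UMIs were kept; the methods print this limit as a percentage that was read as a fraction. With scanpy 1.11.5, 2000 variable genes (none of the 10 genes), 30 components and 15 neighbours gave Leiden clusters at resolution 1, named from marker lists. Marked doublets stayed in (309 to 420 per library by the caller's own threshold, and 633 in WT library 2 by the expected rate, since its own threshold marked 0.0112% of cells) and were left out as an alternative. UMIs were summed per library and class (at least 20 cells in every library) and tested with edgeR 4.0.16 after TMM and a filter on low counts, calling adjusted p under 0.05. DESeq2 1.42.0, other filters and each library left out were alternatives. The tests were checked on simulated counts.

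The 10 genes and all lists were chosen with earlier results of these data known. All 10 genes are named; of the 30 other pathway genes, those called by genotype and the 2 called with the largest change in each direction of a class contrast; and the 3 most similar genes by profile, of which 1 is not reported here. Whether counting used strand is not given in the sources used here, so reads of genes that overlap on opposite strands may not be told apart. Coordinates and overlaps are from GENCODE M21 on the same build.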

Additional observations from a re-analysis of the deposited data

Results flagged for a closer look

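In the main fit, the effect of genotype on Tirap differed between classes by a test of the difference itself. It was 2.03 higher on the log2 scale in neutrophils than in B cells (edgeR adjusted p = 0.0212). The call was lost in a fit without the library block (1.98, edgeR adjusted p = 0.688) and when some single libraries were left out, as given above. Both TLR9-/- libraries were below both WT libraries in B cells, and the genotypes overlapped in neutrophils. With 2 libraries per genotype, such separation can occur without an effect of genotype.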

How the results depend on the processing

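No alternative changed the count of genes called in a class contrast, pooled over both directions, by over 1.5 times. By direction the counts moved more. Without TMM, neutrophils against monocytes went from 5 higher and 1 lower to 3 higher and 5 lower. Neutrophils against the precursors went from 8 higher and 1 lower to 5 higher and 2 lower. Of 882 fold changes recomputed for 79 results, 768 kept direction and side of the threshold, 55 lost and 21 gained a call, and 38 changed sign. The cause was not tested. Library numbers 1 and 2 recur in both genotypes, and the study's methods describe 2 experiments with 1 mouse of each genotype, but neither the labels nor the methods say which number belongs to which experiment (same-numbered deviations correlated at -0.01 to 0.49, over 0.1 in 12 of the 13 classes). With a replicate block on that number, 2 genes were called in granulocyte-monocyte precursors (Irak4 and Ikbke), 1 in B-cell precursors and 1 in B cells (Tirap in both), and none with it elsewhere. Without the filter on low counts Tirap was the 1 gene called in each of the last 2 classes. Leaving out 1 library gave 0 to 1 calls in B-cell precursors and 0 to 2 in B cells, the calls coming without TLR9-/- library 1 (Tirap in both, Irak3 in B cells). For the interactions, leaving out a library gave Tirap differences of 1.69 to 2.22 for neutrophils and 1.00 to 1.73 for monocytes and macrophages against B cells. The fit without the library block gave 0 calls for neutrophils. Without TMM, signs changed for Tbk1 (-0.67 in neutrophils against B cells, -0.70 against monocytes, -0.086 against granulocyte-monocyte precursors), for Ikbke (-0.50), Myd88 (-0.12) and Irak4 (-0.12) in neutrophils against monocytes, for Traf6 (-0.23) in neutrophils against the precursors, and for Irak3 (0.0887) in monocytes against the precursors. The other sign changes were of values not called. In neutrophils against monocytes, Traf6 gave 0.061 by DESeq2, 0.0845 without the filter and 0.0336 with at least 1000 UMIs per cell. In the same contrast Irak2 gave 0.0291 without the filter, 0.0332 without doublets and 0.0304 at resolution 2. Tbk1 gave -0.0191 there without the library block. In neutrophils against the precursors Ikbke gave 0.0911 by DESeq2, 0.051 without the filter, 0.12 without doublets and with at least 1000 UMIs, and 0.0172 at resolution 2. Irak3 in monocytes against the precursors gave 0.0137 by DESeq2 and 0.0569 at resolution 2, and Tirap in monocytes against B cells 0.0154 with at least 1000 UMIs and 0.0332 at resolution 2. With 1 library left out, values ranged from -0.96 to 0.0034 for Irak4 by genotype in plasmacytoid dendritic cells, from -0.0394 to 0.33 for Tbk1 and -0.43 to 0.23 for Tirap in monocytes against B cells, from -0.19 to 0.22 for Traf6 and -0.19 to 0.13 for Irak2 in neutrophils against monocytes, from -0.10 to 0.11 for Irak3 in monocytes against the precursors, and from -0.0934 to 0.18 for Ikbke in neutrophils against the precursors. Classes with few UMIs (Irak1 alone was tested in plasma and NK cells) limit what these data can show.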

Other observations

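Genes beside Tirap and Irak4 were looked at after their values were seen. In B cells, the neighbours of Tirap within 100 kb gave log2 fold changes of -0.40 ± 0.34 (Srpr, SE), -0.57 ± 0.28 (Foxred1), -0.16 ± 0.21 (Dcps), 0.03 ± 0.31 (Fam118b) and 0.27 ± 0.24 (Rpusd4) for TLR9-/- minus WT, and none was called by edgeR. St3gal4, also within 100 kb, was not tested in B cells. In both precursor classes, monocytes and macrophages, and neutrophils, no neighbour was called either. There St3gal4 reached 1.07 ± 0.22 in neutrophils (edgeR adjusted p = 0.102), Fam118b 0.79 ± 0.20 in granulocyte-monocyte precursors and Dcps 0.67 ± 0.17 in monocytes and macrophages. The lowest was Foxred1 at -0.24 ± 0.21 in B-cell precursors. Twf1, whose exons overlap the 3′ end of Irak4, gave 0.24 ± 0.18 in granulocyte-monocyte precursors, where Irak4 gave -0.71 ± 0.19. Of the other pathway genes, Map3k8 was lower in TLR9-/- cells in 10 of the 10 classes in which it was tested (-0.05 to -0.76), and Ube2n (0.08 to 0.71) and Sharpin (0.03 to 0.61) were higher in 13 of 13, without a call in any class. They were picked for their uniform sign, and the classes share the same 4 libraries. The share of all genes with such a sign was counted only for the 10 classes of Irak4. There, of 5806 genes, 499 were lower and 543 higher in every class.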
